A study of Rattus norvegicus with 6 samples.

Results

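The genes described here are 10 carboxylesterases of families 1 to 3, Ces1c, Ces1d, Ces1e, Ces1f, Ces1g, Ces2a, Ces2c, Ces2e, Ces3a and Ces3b. They were looked up by gene symbol, in a set drawn up with earlier results of these data known, and all 10 were found among the 32930 gene rows of the deposited table, each on a single row. All 10 passed the expression filter, in a total of 18455 genes tested. Liver RNA had been sequenced from 3 animals given a high-fat diet with 0.5% CMC-Na, the vehicle (HFD group), and from 3 animals given the same diet with Huazhuo Tiaozhi granule, an extract of several Chinese herbs (HTG group), for 12 weeks. Both groups therefore carried the high-fat diet, and no library of animals on normal diet was analysed here. The treatment field of the HTG samples reads HCG, while their titles and the design text read HTG. The labels call the animals rats, the RNA sequencing paragraph of the study names C57BL/6 J mice, and the gene rows carry mouse Ensembl identifiers, so that the values are read here as those of mouse genes. In the study's account of its rat experiment, dosing began some weeks after the start of the diet, so that the HTG group had the diet for longer than the granule. Age is not given in the sources used here.

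Carboxylesterases are serine hydrolases that cut ester, thioester and amide bonds, and most of them reside in the lumen of the endoplasmic reticulum of hepatocytes. They activate or inactivate many ester drugs and pesticides. Several also release fatty acids from triglycerides, diglycerides and cholesteryl esters, and the lipid that they set free can be secreted with very-low-density lipoprotein or oxidised. In rodents the family has grown by tandem duplication, so that rows of similar genes stand where the human genome has a single gene of each kind.

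The estimated counts summed to between 50648778 and 90563477 per library. Low counts peaked at multiples of 4, although other values occurred too (the count 4 was found 6450 times, 3 was found 2549 times and 5 was found 1757 times). At 4 counts a fragment, the libraries would hold between 12662194 and 22640869 fragments. HTG library 3 was the shallowest. The 10 genes together took between 0.472% and 0.664% of the counts of a library. The least abundant of them, Ces2c, had 611 counts in HTG library 3, which on the same reckoning is 153 fragments and a counting error of 8.09%, and the counting error of the other member values was smaller. Transcripts of the mitochondrial chromosome took between 4.97% and 6.45% of the counts in the HFD libraries and between 9.31% and 15.2% in the HTG libraries. This share separated the groups as some carboxylesterases did, and its part in the results was not tested. The defining hepatocyte gene Alb stood at 20514 FPKM or more in every library, as the label of liver implies. It was lower in every HTG library (20514 to 23493 FPKM) than in any HFD library (24779 to 31602 FPKM). FPKM are fragment counts scaled for transcript length and library depth, and only this unit is used to compare the levels of different genes.

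All 10 genes lie on chromosome 8, in a pair of clusters that are 11.4 Mb apart (coordinates as the deposited table lists them, which names no genome build). The 5 members of family 1 lie on the minus strand between positions 93746842 and 94106353, a stretch of 360 kb that holds 8 Ces1 genes, from Ces1a to Ces1h. The 5 members of families 2 and 3 lie on the plus strand between positions 105460635 and 105876741, a stretch of 416 kb with 11 carboxylesterase rows, among them the pseudogene Ces2d-ps. Besides carboxylesterases, the clusters hold only 4 and 6 further rows, predicted genes without a functional name. A predicted gene overlaps 1 member on the same strand (Gm45909, within Ces1d, 82 to 401 counts) and another overlaps 1 member on the opposite strand (Gm45724, at Ces3a, 57 to 797 counts). These counts are small beside the 5495 to 96234 counts of Ces1d and the 76012 to 216186 counts of Ces3a. The members resemble each other in sequence, and whether fragments that match several of them were counted once, shared or dropped is not given in the sources used here. The split of counts between neighbours is therefore uncertain, and the sums over a family are less exposed to it.

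Activity was uneven along both clusters. Ces1c, Ces1d, Ces1e, Ces1f and Ces1g stand side by side, and together with Ces1b they carried nearly all family 1 transcripts, while Ces1a and Ces1h at the ends of the row had at most 0.44 and 0.04 FPKM in any library. In the second cluster Ces3a and Ces3b had the highest mean FPKM in both groups. In HFD library 2, however, Ces3b (36.2 FPKM) was below Ces2a (39.8 FPKM). Ces3a and Ces3b are next to Ces2h and Ces4a, which had at most 0.44 and 1.03 FPKM. Ces2f was listed at 0 in every library, and Ces2b at 0 in 4 of the 6 libraries and at most 0.05 FPKM in the others. In the second cluster Ces2c, the pseudogene Ces2d-ps, Ces2e, Ces2g, Ces2h and Ces3b shared 1 order of the HFD libraries, with library 3 highest, library 1 in the middle and library 2 lowest. Ces2a, Ces3a and Ces4a did not share it, and HFD library 1 was their highest. The shared order was noticed after the values were seen, and its frequency among all genes was not counted.

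**Figure D1:**
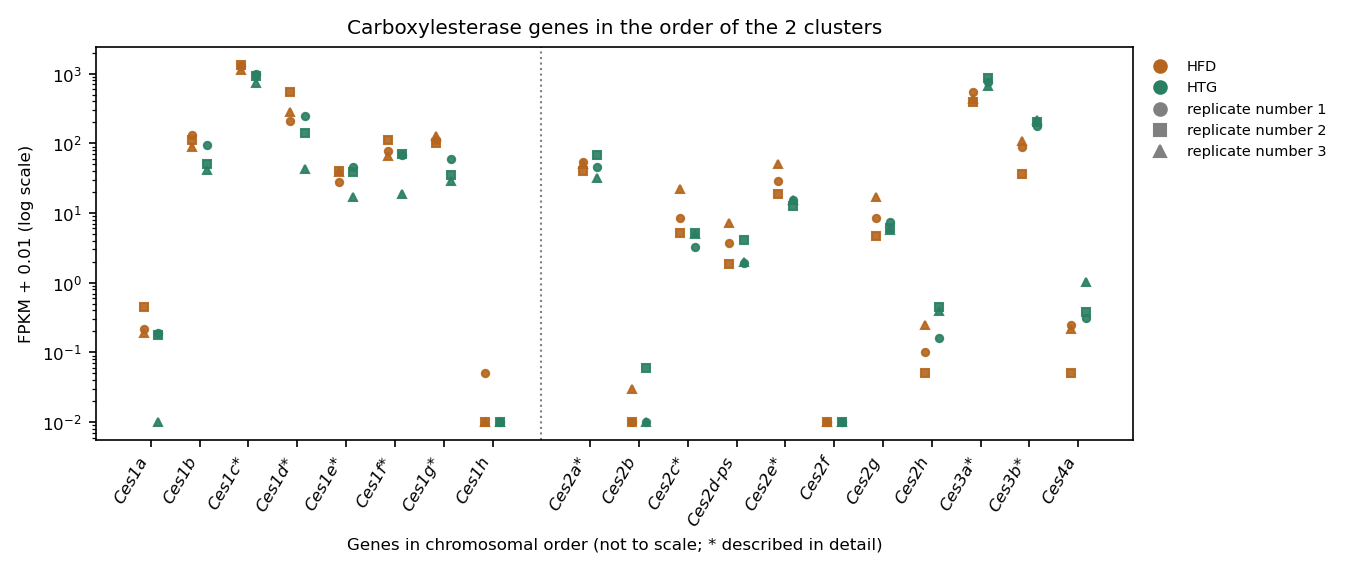
Level of all 19 carboxylesterase rows in chromosomal order, as FPKM + 0.01 on a log scale. Each point is 1 library, with brown for HFD, green for HTG and the symbol for the replicate number, and the dotted line parts the clusters. Ces1c and Ces3a stand highest in their clusters, and Ces1h, Ces2b and Ces2f are at or near 0.

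In the HFD group the secreted enzyme Ces1c was the most abundant member, with 1242 ± 111 FPKM (SD, n = 3), above Ces3a in all 3 libraries and without overlap of their ranges. Ces3a (454 ± 76.7 FPKM) and Ces1d (346 ± 181 FPKM) followed, and their ranges overlapped. Ces1g (113 ± 12.1 FPKM), Ces1f (84.4 ± 23.7 FPKM) and Ces3b (77.7 ± 37.1 FPKM) came next, and each overlapped its neighbour in this order. Ces2a (47.8 ± 7.09 FPKM), Ces1e (35.7 ± 6.71 FPKM), Ces2e (32.9 ± 16.5 FPKM) and Ces2c (12.1 ± 9.16 FPKM) were the lowest, and here too neighbours overlapped. In the HTG group Ces1c still had the highest mean, with 886 ± 126 FPKM, but its range overlapped that of Ces3a, with 763 ± 90.3 FPKM (SD, n = 3 each). Within each of the 3 HTG libraries Ces1c was above Ces3a. Ces3b stood in the third place there, with 197 ± 19.4 FPKM, and Ces1g in the seventh, with 41.0 ± 16.5 FPKM.

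The comparison of the HTG with the HFD libraries asks which liver transcripts differ when HTG is added to a high-fat diet. Both members of family 3, Ces3a and Ces3b, were higher in every HTG library than in any HFD library. In family 1, Ces1g and Ces1c were lower in every HTG library than in any HFD library, and in family 2 the same held for Ces2c and Ces2e. Ces1d, Ces1e, Ces1f and Ces2a overlapped between the groups. Fold changes and p-values are from edgeR's quasi-likelihood test over all genes tested, two-sided, with Benjamini-Hochberg adjustment. At an adjusted p under 0.05, 0 of the 10 genes were called, against 0.0108% of all genes tested (2 genes, 0.00542% in each direction), and DESeq2 called 5 of the 10 and 2401 genes in all. At an adjusted p under 0.1, 2 members were lower, against 5.43% of all genes tested, and 2 were higher, against 5.41%, in all 4 of the 10 genes against 10.8%. At an unadjusted p under 0.05, 3 members were lower, against 12.4% of all genes tested, and 2 were higher, against 12.3%. In either direction this was 5 of the 10 genes, where 24.7% of all genes tested passed. The groups did not overlap in 4 lower members, against 15.5% of all genes tested, and in 2 higher members, against 16.5%. The median log2 fold change was -0.57 over the 10 genes and 0.03 over all genes tested. With 3 libraries against 3, an exact two-sided permutation test of a single gene cannot go below p = 0.1. The design text counts 6 animals, 1 to a library, and does not say which of them were processed together, so that the p-values measure the spread between these libraries.

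**Figure D2:**
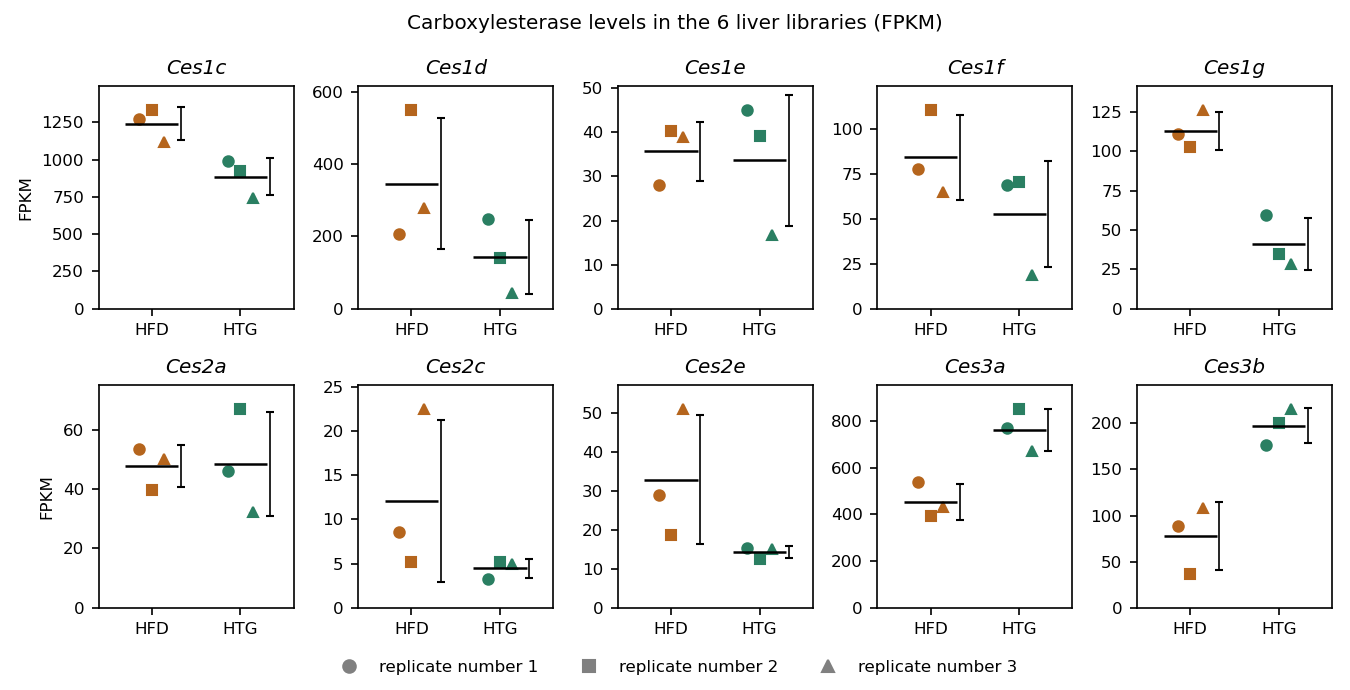
FPKM of each carboxylesterase in the 6 libraries, on linear axes that start at 0. Points are libraries, with the symbol for the replicate number, horizontal lines are group means and vertical bars are ± 1 SD of n = 3. The HTG points of Ces3a and Ces3b lie above all HFD points, and those of Ces1c, Ces1g and Ces2e lie below them, while in Ces2c the lowest HFD point and the highest HTG point nearly touch.

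Family 3 consists here of Ces3a (ENSMUSG00000069922, positions 105775233 to 105785045) and Ces3b (ENSMUSG00000062181, positions 105810385 to 105820561), which encode esterases of the hepatocyte endoplasmic reticulum. Ces3a had 540, 392 and 430 FPKM in HFD libraries 1, 2 and 3 and 768, 851 and 671 FPKM in HTG libraries 1, 2 and 3. The lowest HTG library was above the highest HFD library. Its log2 fold change was 0.79 (standard error 0.21, 95% interval 0.30 to 1.29), which is 1.73-fold, with an unadjusted p of 0.00566 and an adjusted p of 0.0805 from edgeR. Ces3b had 88.9, 36.2 and 108 FPKM in the HFD libraries and 177, 200 and 215 FPKM in the HTG libraries. HFD library 2 was the lowest by a wide margin, and without it the log2 fold change was 1.10 in place of 1.42. With all libraries the change of Ces3b was 2.68-fold (95% interval 1.53 to 4.70), with an unadjusted p of 0.00358 and an adjusted p of 0.0676 from edgeR. Both genes kept an unadjusted p under 0.05 in each of the 15 alternative analyses, and so did Ces1g and Ces2e. Ces3b stood at between 0.0923 and 0.251 of the Ces3a level in the HFD libraries and at between 0.230 and 0.321 of it in the HTG libraries, and these ranges overlapped.

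Ces1g (ENSMUSG00000057074, positions 94028997 to 94063936), also known as esterase-x, hydrolyses triglycerides, and mice that lack it are known to develop a fatty liver. It had 111, 103 and 126 FPKM in HFD libraries 1, 2 and 3 and 59.7, 34.7 and 28.5 FPKM in HTG libraries 1, 2 and 3. The lowest HFD library was far above the highest HTG library, and HTG library 1 was the closest to the HFD group. The log2 fold change was -1.42 (standard error 0.29, 95% interval -2.08 to -0.77), or 0.373-fold, with an unadjusted p of 0.000953. The adjusted p of 0.0582 was the smallest among the 10 genes. It was under 0.05 in 6 of the 15 alternative analyses, among them DESeq2 (adjusted p = 7.91e-05), and between 7.91e-05 and 0.197 in all of them.

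Ces1c (ENSMUSG00000057400, positions 93825643 to 93857911) encodes the carboxylesterase that mouse liver secretes into plasma, where it cleaves many ester prodrugs. It had 1272, 1335 and 1119 FPKM in the HFD libraries and 989, 926 and 745 FPKM in the HTG libraries. The groups did not overlap, and the difference of the means was larger than either SD. The log2 fold change was -0.45 (95% interval -0.98 to 0.07), with an unadjusted p of 0.0835 and an adjusted p of 0.267. DESeq2 gave an unadjusted p of 0.0196, and edgeR without HTG library 1 gave one of 0.037. Only these 2 of the 15 alternative analyses had an unadjusted p under 0.05. The highest was 0.223, from edgeR without HFD library 2.

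Ces1d (ENSMUSG00000056973, positions 93892696 to 93924466) encodes triacylglycerol hydrolase, which supplies stored lipid for the assembly of very-low-density lipoprotein. It had the largest SD relative to its mean in both groups among the family 1 members, with 207, 551 and 280 FPKM in the HFD libraries and 248, 142 and 43.1 FPKM in the HTG libraries. HTG library 1 lay above HFD library 1, and HFD library 2 stood apart at the top. Its log2 fold change of -1.27 had a 95% interval from -2.65 to 0.11 (unadjusted p = 0.0675, adjusted p = 0.238 from edgeR). It was -0.69 without HFD library 2, -0.83 without HTG library 3 and -1.98 without HTG library 1. Relative to Ces1c, its level was between 0.163 and 0.413 in the HFD libraries and between 0.0578 and 0.251 in the HTG libraries.

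Ces1f (ENSMUSG00000031725, positions 93982864 to 94006375) encodes a further esterase of the hepatocyte endoplasmic reticulum. It had 77.8, 111 and 64.7 FPKM in the HFD libraries and 68.9, 70.7 and 18.6 FPKM in the HTG libraries. HTG library 3 stood far below the others, and the other HTG libraries were within the HFD range. The log2 fold change of -0.68 (95% interval -1.72 to 0.35, unadjusted p = 0.168 and adjusted p = 0.389 from edgeR) was -0.29 without HTG library 3 and -0.38 without HFD library 2. With the replicate number as a block, Ces1f and Ces1d had unadjusted p-values of 0.0447 and 0.0478 in edgeR, and the numbers were not shown to pair the animals.

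Ces1e (ENSMUSG00000061959, positions 93927846 to 93956247) encodes egasyn, which holds beta-glucuronidase in the endoplasmic reticulum. It had 28.0, 40.3 and 38.9 FPKM in the HFD libraries and 45.1, 39.1 and 16.7 FPKM in the HTG libraries. Both the highest and the lowest value belonged to the HTG group. Its log2 fold change of -0.07 had a 95% interval from -0.84 to 0.69 (unadjusted p = 0.835, adjusted p = 0.92 from edgeR), and it turned to 0.24 without HTG library 3 and to 0.07 without HFD library 2. On the linear scale the interval runs from 0.560-fold to 1.62-fold.

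Family 2 enzymes act in liver and intestine and favour small acyl and large alcohol groups. The deposited table annotates all 3 members with retinyl palmitate hydrolase activity and with prostaglandin metabolism. The retinyl palmitate term is also on Ces1d, Ces1e and Ces1f of family 1. Ces2e (ENSMUSG00000031886, positions 105652892 to 105661304) had 29.0, 18.8 and 51.0 FPKM in the HFD libraries and 15.3, 12.5 and 15.2 FPKM in the HTG libraries. The HTG libraries lay close together below a wide HFD range. This is a log2 fold change of -1.13 (standard error 0.33, 95% interval -1.88 to -0.38), or 0.458-fold, with an unadjusted p of 0.00816 and an adjusted p of 0.091 from edgeR. Without HFD library 3 it was -0.69, with an unadjusted p of 0.0204.

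Ces2c (ENSMUSG00000061825, positions 105573700 to 105581115), which has triglyceride and diglyceride hydrolase activity, had 8.52, 5.19 and 22.5 FPKM in the HFD libraries and 3.27, 5.18 and 4.93 FPKM in the HTG libraries. HFD library 2 was level with HTG library 2, and HFD library 3 stood alone at the top. The log2 fold change was -1.37 (95% interval -2.44 to -0.29, unadjusted p = 0.0188, adjusted p = 0.125 from edgeR). It was -0.58 (unadjusted p = 0.0695) without HFD library 3 and -1.23 (unadjusted p = 0.0614) without HTG library 1. Ces2a (ENSMUSG00000055730, positions 105460635 to 105468266) had 53.4, 39.8 and 50.2 FPKM in the HFD libraries and 45.9, 66.9 and 32.1 FPKM in the HTG libraries, which span the HFD values on both sides. Its log2 fold change was 0.04, with a 95% interval from -0.50 to 0.59 (unadjusted p = 0.857, adjusted p = 0.931 from edgeR), and its sign turned in 4 of the 15 alternative analyses.

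**Figure D3:**
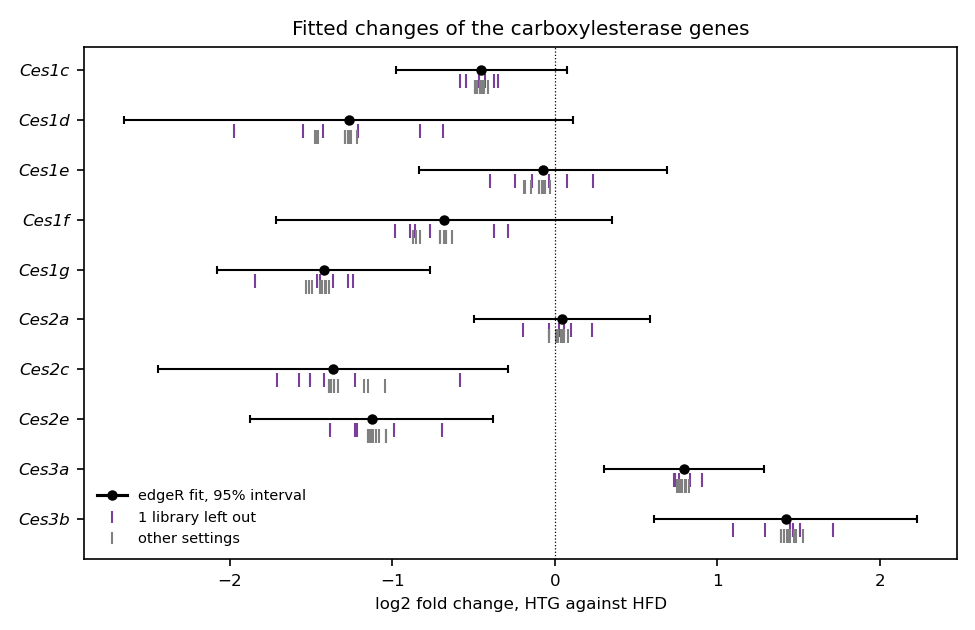
Log2 fold change of each carboxylesterase, HTG against HFD. Black points and bars are edgeR estimates with 95% intervals, purple ticks leave out 1 library and grey ticks are the other settings. The intervals of Ces1g, Ces2c, Ces2e, Ces3a and Ces3b stay off 0, and the purple ticks of Ces1d, Ces1f and Ces2c spread most.

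The libraries that set the extremes were not the same for every gene. HTG library 3 was the lowest of the 6 in 6 of the 10 genes by normalised counts, and it was the highest in 1, Ces3b. How often this library was the lowest among all genes tested was not counted. HFD library 2 was the highest in 3 genes, Ces1c, Ces1d and Ces1f, and the lowest in Ces3b. HFD library 3 was the highest in Ces1g, Ces2c and Ces2e.

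The summed level of the 10 genes differed little between the groups, while its make-up differed more. The sum was 2416, 2631 and 2290 FPKM in HFD libraries 1, 2 and 3 and 2420, 2348 and 1790 FPKM in HTG libraries 1, 2 and 3, and these ranges overlapped. Family 1 made up 70.2%, 81.3% and 71.1% of it in the HFD libraries against 58.3%, 51.6% and 47.6% in the HTG libraries. Family 3 made up 26.0%, 16.3% and 23.5% in the HFD libraries against 39.1%, 44.8% and 49.5% in the HTG libraries. Neither share overlapped between the groups, and they are not independent, since the shares add up to the whole. Family 2 took between 2.42% and 5.40% in the HFD libraries and between 2.66% and 3.60% in the HTG libraries. Within a library, Ces3a stood at between 0.294 and 0.424 of the Ces1c level in the HFD group and at between 0.777 and 0.919 of it in the HTG group. Such ratios within a library do not depend on how the libraries were scaled to each other.

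**Figure D4:**
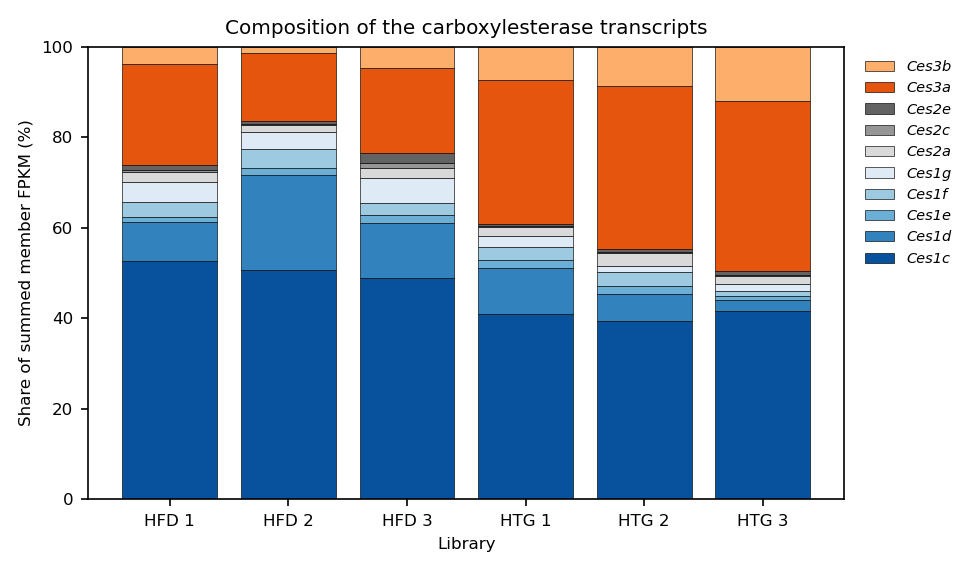
Share of each gene in the summed FPKM of the 10 carboxylesterases, in percent, for each library. Blue tones are family 1, grey tones family 2 and orange tones family 3. The orange part runs from 16.3% to 26.0% in the HFD libraries and from 39.1% to 49.5% in the HTG libraries.

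Of the 9 other carboxylesterase genes on the list, 8 had a row and 5 were tested. At an unadjusted p under 0.05, 1 was lower, against 12.4% of all genes tested, and 1 was higher, against 12.3%. Ces1b, the neighbour of Ces1c, had 133, 113 and 88.3 FPKM in the HFD libraries and 93.7, 50.1 and 41.1 FPKM in the HTG libraries. HTG library 1 lay within the HFD range, and the log2 fold change was -0.81 (unadjusted p = 0.0363, adjusted p = 0.171 from edgeR). Ces4a, next to Ces3b, had 0.24, 0.04 and 0.21 FPKM in the HFD libraries and 0.3, 0.37 and 1.03 FPKM in the HTG libraries, with a log2 fold change of 1.88 (unadjusted p = 0.0316, adjusted p = 0.159). Ces4a rests on few counts, and without HTG library 3 its log2 fold change was 1.03, with an unadjusted p of 0.191, and without HFD library 2 it was 1.44, with an unadjusted p of 0.069. The call on Ces1b was lost without HFD library 1 (-0.70), HFD library 2 (-0.75), HTG library 2 (-0.64) or HTG library 3 (-0.61). Ces2g, in the row of family 2, had 8.49, 4.62 and 17.0 FPKM in the HFD libraries and 7.34, 6.14 and 5.64 FPKM in the HTG libraries, and its log2 fold change of -0.59 was close to 0 without HFD library 3.

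Other enzymes can cut the same kinds of bond. Of 14 lipid hydrolases and their cofactors, 13 were tested, 12 were estimated lower with HTG, against 48.4% of all genes tested, and their median was -0.91 on the log2 scale. At an unadjusted p under 0.05, 6 were lower, against 12.4% of all genes tested, 0 were higher, and 0 had an adjusted p under 0.05 in edgeR. The count of lower genes was 3 without HFD library 2 and 3 without HTG library 2. Lipa, the lysosomal acid lipase, had 16.9, 23.4 and 25.4 FPKM in the HFD libraries and 11.2, 6.14 and 4.64 FPKM in the HTG libraries, with a log2 fold change of -1.54 (adjusted p = 0.0606). Pnpla8, a phospholipase of mitochondria and peroxisomes, had a log2 fold change of -1.26 (adjusted p = 0.0585), and its groups did not overlap either. The most abundant of the list were Aadac and G0s2. Aadac, an esterase of the endoplasmic reticulum that handles lipids and drugs, had between 197 and 238 FPKM in the HFD libraries and between 183 and 208 FPKM in the HTG libraries (log2 fold change -0.11, adjusted p = 0.734). G0s2, an inhibitor of adipose triglyceride lipase, had 312 FPKM in HFD library 2 and between 11.4 and 82.6 FPKM in the other 5 libraries, and its log2 fold change of -1.31 turned to 0.17 without HFD library 2.

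Of 10 other esterases of drugs and small esters, all tested, 9 had a lower fitted value, against 48.4% of all genes tested, with a median log2 fold change of -0.31. At an unadjusted p under 0.05, 3 were lower, against 12.4% of all genes tested, 0 were higher, and the count of lower genes was 6 without HTG library 1. Pon2, an intracellular paraoxonase, had 6.93, 7.69 and 5.43 FPKM in the HFD libraries and 3.25, 1.99 and 2.44 FPKM in the HTG libraries (log2 fold change -1.34, adjusted p = 0.0582). Bche, butyrylcholinesterase, which liver secretes into plasma, had 15.4, 13.2 and 14.8 FPKM in the HFD libraries and 10.1, 5.59 and 5.7 FPKM in the HTG libraries (log2 fold change -0.98, adjusted p = 0.0752). Pon1, the paraoxonase carried by high-density lipoprotein, was the most abundant, and its groups overlapped (log2 fold change -0.35, adjusted p = 0.481). Its log2 fold change was -0.72 without HTG library 1.

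A further list held 11 nuclear receptors and transcription factors that are known to act on carboxylesterase genes or on hepatocyte genes at large, all tested. Of these, 9 had a lower fitted value, against 48.4% of all genes tested, with a median log2 fold change of -0.16. At an unadjusted p under 0.05, 2 were lower, against 12.4% of all genes tested, and 0 were higher. Rxra, the partner of the lipid-sensing and xenobiotic receptors, had 60.7, 61.6 and 59.9 FPKM in the HFD libraries and 40.7, 33.9 and 32.0 FPKM in the HTG libraries. The HFD libraries were nearly equal, and all HTG libraries were below them (log2 fold change -0.73, adjusted p = 0.0785 from edgeR). Ppara, the receptor for fatty acids, had 5.34, 8.3 and 13.1 FPKM in the HFD libraries and 3.91, 6.83 and 4.33 FPKM in the HTG libraries, which overlapped (log2 fold change -0.80, adjusted p = 0.178). Its unadjusted p of 0.0392 rose above 0.05 without HFD library 2, HFD library 3, HTG library 1 or HTG library 3. Nr1i3, the constitutive androstane receptor, and Cebpa were the most abundant. Their log2 fold changes were 0.15 (adjusted p = 0.847) and -0.03 (adjusted p = 0.96), and the sign of both turned in some of the alternative analyses.

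Carboxylesterase transcripts of a liver piece can also reflect its mix of cells, and fewer hepatocytes cannot be told apart from less RNA per hepatocyte in bulk samples. Of 9 hepatocyte markers, 8 had a row, and their summed normalised counts, as CPM, in which every library is scaled to one total, ran from 84388 to 102593 in the HFD libraries and from 82919 to 86521 in the HTG libraries. At an unadjusted p under 0.05, 3 of these 8 genes were lower (Apob, Cps1 and Ass1), against 12.4% of all genes tested. In the other direction 1 was higher (Apoa1), against 12.3%. The groups did not overlap in 5 lower genes, Alb among them, against 15.5%, and in 1 higher gene, against 16.5%. The log2 fold change of Alb was -0.28 (adjusted p = 0.555 from edgeR). The part of the hepatocyte markers in the results was not tested. The sums overlapped between the groups for markers of Kupffer cells (216 to 548 and 231 to 407 CPM), sinusoidal endothelium (45.0 to 103 and 76.8 to 119), stellate cells (132 to 180 and 102 to 156), cholangiocytes (85.3 to 106 and 59.5 to 131) and red cells (202 to 360 and 208 to 366). Single markers on these lists did separate the groups. Adgre1, a Kupffer cell marker, was lower in every HTG library (0.347-fold, unadjusted p = 0.000334, adjusted p = 0.0538 from edgeR). The 6 Kupffer cell markers all had a lower fitted value, against 48.4% of all genes tested, but only Adgre1 had an unadjusted p under 0.05. The log2 fold changes of Clec4f and Timd4 were -0.08 and -0.02. At an unadjusted p under 0.05 and without overlap, Reln, Epcam and Alas2 were lower and Des and Sox9 were higher, and 0 of the 5 sinusoidal markers passed. The part of these markers in the results was not tested. Of the 5 leukocyte markers, 4 were tested, and their sum was 276 to 419 CPM in the HFD libraries and 165 to 271 CPM in the HTG libraries, carried mainly by Lyz2. Lyz2 was also lower in every HTG library (0.590-fold, unadjusted p = 0.0217 and adjusted p = 0.133 from edgeR). The other 3 tested leukocyte markers had higher fitted values, and their groups overlapped. Their log2 fold changes were 0.21 for Ptprc, 0.25 for Cd3e and 0.08 for Cd79a. The part of the leukocyte markers in the results was not tested. The adipocyte marker Adipoq and the pancreatic marker Pnlip were at 0 in every library, and the intestinal marker Lct had at most 12 counts. Other markers of these lists were present. Fabp2, on the intestinal list, had 1091 to 5654 counts, and Cela1, on the pancreatic list, had 259 to 788 counts. These genes carried nearly all of the intestinal sum and the whole pancreatic sum. The summed adipocyte markers were 14.6 CPM in HFD library 2 and between 1.44 and 2.26 CPM in the other libraries, and in HFD library 2 it came from Cidec alone. The sums ran from 31.4 to 33.5 and from 23.3 to 58.1 CPM for intestinal epithelium and from 4.57 to 5.78 and from 5.38 to 8.06 CPM for exocrine pancreas in the HFD and HTG libraries.

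The annotation in the deposited table sets family 1 apart from the others. All 5 members of family 1 carry terms for the lipid droplet, sterol esterase activity, cholesterol homeostasis and reverse cholesterol transport, and none of the family 2 or family 3 members does. All 10 genes are annotated to the endoplasmic reticulum and to carboxylic ester hydrolase activity, a term on 59 genes of the table. The pathway entry for drug metabolism by other enzymes lists 7 of the 10 and leaves out Ces1g, Ces3a and Ces3b.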

How the data were processed

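Poly(A) RNA of 6 livers, 3 per group, had been sequenced as paired-end, strand-marked libraries. The submitters' processing notes name HISAT2, StringTie and SAMtools and the rat build mRatBN7.2, without versions, whereas the gene rows carry mouse identifiers. How multi-mapping fragments were counted is not given in the sources used here. The authors deposited 1 table with an estimated count and an FPKM per gene and library. Its columns of fold changes and p-values from the authors' own comparison were not used. No mouse sequence was at hand, and none is printed.

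Deposited estimated counts were rounded to whole numbers, filtered with filterByExpr, scaled by TMM and tested with the quasi-likelihood test of edgeR 4.0.16 in R 4.3.3, with HFD and HTG as the only term and Benjamini-Hochberg adjustment over the 18455 genes tested. Normalised counts are CPM on TMM-scaled library sizes. Deposited FPKM values were used for levels between genes and for shares. The fit was tested on simulated data. Total counts ran from 50648778 to 90563477 per library, and counting errors cover counting only.

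Alternatives were DESeq2 1.42.0, no filter on low counts, at least 10 counts in every library, DESeq2 size factors and upper-quartile scaling in edgeR, a block for the replicate number, omission of each library in turn, limma 3.58.1 on log2(FPKM + 0.1) and log2(FPKM + 1), and counts divided by 4. The members and lists were chosen with earlier results of these data known. All 10 members were named. In each of the 4 other gene lists, the 2 genes of highest mean FPKM and the 2 of smallest unadjusted p were named, and of the 10 marker lists those at 0 or highest. The markers Apoa1, Apob, Cps1, Ass1, Adgre1, Timd4, Reln, Epcam, Alas2, Des and Sox9 were named after their values were seen. So were Ptprc, Cd3e, Cd79a and Lct. Of 107 list genes, 99 had a row. Symbols were matched exactly. Cell type marker sums were described without a test.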

Additional observations from a re-analysis of the deposited data

How the results depend on the processing

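Each of the 10 carboxylesterases had at least 611 counts in every library, and the number called depended on the method. Over 15 alternatives, 134 of 150 member values kept their direction and their side of an adjusted p of 0.05, and the cause of the others was not tested. Across all genes, the number with an adjusted p under 0.05 was 2 in edgeR, 2401 in DESeq2, 162 without a filter on low counts, 684 with at least 10 counts in every library, 822 with counts divided by 4, and 878 and 884 with limma on log2(FPKM + 0.1) and log2(FPKM + 1). Leaving out 1 library gave 0 to 653 such genes, the highest without HTG library 1.

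Ces1g passed an adjusted p of 0.05 in DESeq2 (log2 fold change -1.45), with at least 10 counts in every library (-1.42), with both limma fits (-1.53 and -1.51), with counts divided by 4 (-1.41) and without HTG library 1, and its range without 1 library was -1.85 to -1.24. DESeq2 also called Ces2c (-1.39), Ces2e (-1.15), Ces3a (0.77) and Ces3b (1.39).

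The log2 fold change of Ces1e ranged from -0.40 to 0.24 without 1 library, and that of Ces2a from -0.19 to 0.23, with -0.037 and -0.035 in the limma fits. The same range was -1.72 to 0.17 for G0s2, -0.18 to 0.39 for Nr1i3 and -0.27 to 0.18 for Cebpa, which was 0.010 with upper-quartile scaling. Lower members at an unadjusted p under 0.05 numbered 2 to 4 without 1 library.

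At that p and without 1 library, 0 to 1 of the other carboxylesterases were lower and 0 to 2 higher, 3 to 6 of the lipid hydrolases were lower and 0 to 1 higher, 3 to 6 of the other esterases were lower, and 1 to 3 of the receptors and factors were lower and 0 to 1 higher. With at least 10 counts in every library and with both limma fits, 0 other carboxylesterases were higher, Ces4a having been filtered out, and both limma fits gave 1 lower receptor or factor.

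With the replicate number as a block, 0 genes had an adjusted p under 0.05, 5 members were lower at an unadjusted p under 0.05 (3 without the block), and Cebpa had a log2 fold change of 0.018. Deviations of same-numbered libraries correlated at -0.08, -0.07 and 0.10, so that the numbers were not shown to pair the animals.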
